A study of Mus musculus with 9 samples.

Results

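The type I interferon-stimulated genes described here are 33 mouse genes, taken by symbol as known targets of type I interferon. Each symbol was found once among the 52381 genes of the deposited table, and all 33 passed the filter on low values, an FPKM (fragment count scaled to gene length and to the size of the library) of at least 1 in at least 4 libraries, as did 11817 genes in all. By role they are 4 sensors of nucleic acid (Ifih1, Ddx58, Dhx58 and Zbp1), 3 transcription factors (Irf7, Irf9 and Stat2) and 26 effectors, the proteins that act against infection or trim the response. The largest effector families are the 6 OAS genes (Oas1a, Oas1g, Oas2, Oas3, Oasl1 and Oasl2) and the 4 IFIT genes (Ifit1, Ifit2, Ifit3 and Ifit3b). The other effectors are Mx1, Mx2, Isg15, Usp18, Rsad2, Cmpk2, Bst2, Ifitm3, Parp9, Parp14, Ifi44, Rtp4, Xaf1, Ifi35, Trim30a and Isg20.

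RNA was sequenced from the lungs of 9 mice, all with acute lung injury (ALI) after lipopolysaccharide (LPS), the outer-membrane glycolipid of Gram-negative bacteria. The group called LPS-ALI holds 4 mice without further treatment, and the group called TMAO holds 5 mice with the same injury that were also given trimethylamine N-oxide, a compound made in the liver from a product of gut bacteria. The study asks what TMAO does in the injured lung. Injury by LPS is common to both groups, and uninjured mice are not analysed here. The sources used here do not give strain, age, the LPS and TMAO doses or the time of sampling, and all differences below are TMAO minus LPS-ALI. The tissue is labelled lung, although the extraction text speaks of platelets. Sftpc, the surfactant gene of alveolar type 2 cells, stood at 709.7 to 9809 FPKM over the 9 libraries.

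Type I interferons are secreted after cells detect microbial products, among them LPS, and they bind a receptor that activates the kinases JAK1 and TYK2. The kinases phosphorylate STAT2, which acts with IRF9 in a complex that binds the interferon-stimulated response element in the promoters of target genes. Several targets encode parts of the same circuit, so that sensors and factors such as IRF7 strengthen the response, while USP18 damps it at the receptor.

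None of the interferon-stimulated genes differed between the groups past the threshold, and the leading feature of their data was the spread among lungs of the LPS-ALI group. In limma, 0 of the 33 genes had an adjusted p under 0.05 (adjusted p = 0.998 for each), as did 0% of all genes tested. At an unadjusted p under 0.05, 1 gene was lower, Oas1g, and 0 were higher, against 2.93% and 0.423% of all genes, so that the share of lower genes was close to that over all genes. In 0 of the 33 genes did every TMAO lung lie below, or every TMAO lung above, every LPS-ALI lung, against 1.36% and 0.118% of all genes. The groups of libraries thus overlapped for every interferon-stimulated gene in the list.

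Differences are given in log2(FPKM + 1), a scale on which the change of genes with low FPKM is understated. Each p and SE belongs to the log2 difference as fitted, while a relative difference is that value minus the difference of the median gene, which was -0.17. In the limma fit with each library centred on its median gene, which tests the relative difference itself, 2 of the 33 genes were lower and 0 higher at an unadjusted p under 0.05, against 3.71% and 3.5% of all genes. The 2 were Oas1g (-0.70 ± 0.27 SE, limma unadjusted p = 0.0262, adjusted p = 0.644) and Dhx58 (-0.49 ± 0.19 SE, limma unadjusted p = 0.0294, adjusted p = 0.657). On the relative scale 32 of the 33 genes were below the median gene, a share that is 50% over all genes by construction, and the median over the 33 was -0.44. The exception was Cmpk2. The tilt depended on which LPS-ALI lungs were kept. Without LPS-ALI replicate 4, 21 of 33 were below the median gene and the median was -0.04, and without TMAO replicate 5 as well, the sparsest library, it was 17 of 33 and -0.01. Without both LPS-ALI replicates 3 and 4, it was 29 of 33 and -0.24. In bulk lung, fewer cells of a type and less RNA per cell cannot be told apart.

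LPS-ALI replicate 4 had the highest FPKM of all 9 libraries for 29 of the 33 genes, against 26.9% of all genes tested. For 19 of the 33 it was at least 2-fold above the highest other library, which held for 4.06% of all genes. Its FPKM over the median of LPS-ALI replicates 1 to 3 had a median of 2.57-fold over the interferon-stimulated genes and 1.09-fold over all genes. At the other end of the same group, LPS-ALI replicate 3 was the lowest of the 4 LPS-ALI libraries for 29 of the 33 genes, against 43.4% of all genes. TMAO replicate 5 was the lowest of all 9 for 29 of the 33, but it was so for 74.3% of all genes as well.

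**Figure D1:**
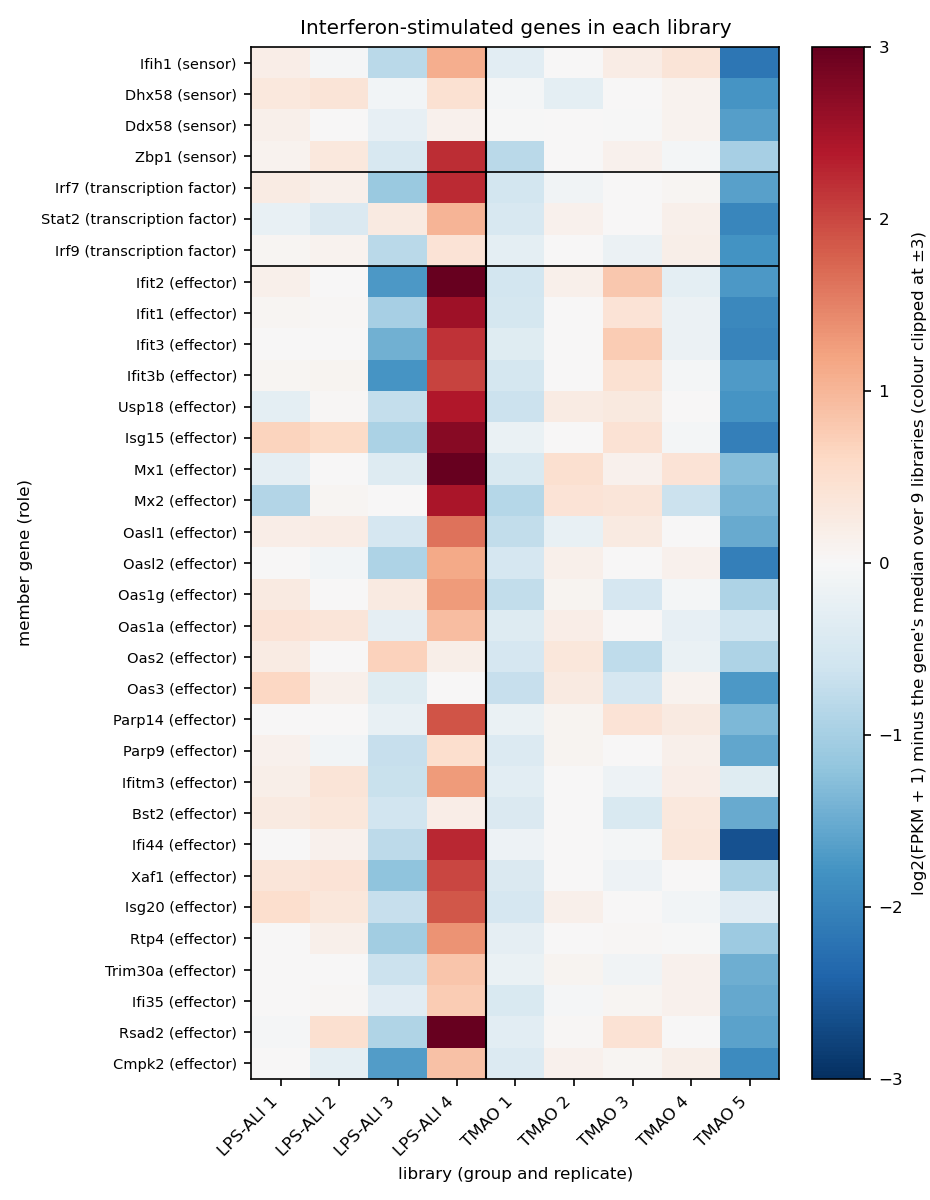
Level of each of the 33 interferon-stimulated genes (rows, with role) in each of the 9 libraries (columns), as log2(FPKM + 1) minus the median of the gene over the 9 libraries, with colour clipped at ±3. The LPS-ALI 4 column is the highest for 29 genes, LPS-ALI 3 is the lowest of its group for 29, and TMAO 5 is the lowest of all for 29.

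The mean log2 level of the 33 genes minus the median gene of the same library puts these lungs on 1 scale. It was 1.78, 1.95, 1.28 and 3.32 in LPS-ALI replicates 1 to 4. It was 1.53, 1.76, 1.93, 1.40 and 1.46 in TMAO replicates 1 to 5. The 5 TMAO lungs lay inside the range of the LPS-ALI lungs, and TMAO replicate 5 was not apart from the rest of its group on this scale. The group means differed by -0.46, by -0.05 when LPS-ALI replicate 4 was left out, and by -0.01 when TMAO replicate 5 was also left out. The SD was 0.87 (n = 4) in LPS-ALI and 0.22 (n = 5) in TMAO. The lowest and the highest LPS-ALI lungs, replicates 3 and 4, are also the pair whose library codes begin with X. All others begin with B, and the sources used here do not say what the letters mean. This pair also had the highest level of ciliated cell markers, on the same scale over 8 genes. That level was 1.31 and 1.60 in replicates 3 and 4, against -0.20 to 1.22 in the other libraries. The summed FPKM of all 12 listed ciliated cell markers did not set the pair apart. It was 198.8 and 336.5 in replicates 3 and 4, against 125.5 to 411.7 in the other libraries.

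Other genes set LPS-ALI replicate 4 apart too. Its alveolar type 2 marker level, on the same scale over 10 genes, was 2.24 against 4.04 to 5.01 in the other 8 libraries, and the summed FPKM of these markers was 1313 against 4965 to 14908. Its erythroid level (5 genes) was 4.84 against 0.85 to 2.63, with a summed FPKM of 2326 against 124.1 to 291.2. The 9 T and NK cell markers summed to 61.3 FPKM there, of which Gzma held 39.45. The sum was 31.8 to 39.3 in the other LPS-ALI lungs and 10.9 to 21.5 in the TMAO lungs. By level over the 3 tested genes, LPS-ALI replicate 4 was close to replicate 3, at 0.88 and 0.75. The other libraries had -0.83 to 0.03. The mean level of the 15 neutrophil markers was inside the range of the others, at 3.75 against 3.52 to 4.51, but the markers were split. LPS-ALI replicate 4 was the highest library for 4 of the 15, while their median fold over the other LPS-ALI lungs was 0.49. S100a8 stood at 2551 FPKM there against 2968 to 8256 elsewhere, and Lcn2 at 4946 against 782.9 to 2563. The level of the monocyte markers was 0.63 to 0.91 in TMAO lungs and 1.16 to 1.26 in LPS-ALI lungs, with 1.18 in LPS-ALI replicate 4. Their summed FPKM was the highest in LPS-ALI replicate 4, at 588.6 against 177.9 to 494.1 in the other libraries. Of the 11 markers of plasmacytoid dendritic cells, a rich source of type I interferon, 4 passed the filter, and the sum over all 11 was 23.5 FPKM there, against 21.7 to 50.9 elsewhere. Their defining genes Siglech and Ccr9 stood at 0.22 FPKM or less in every library. The part that cell composition plays in the interferon-stimulated genes was not tested.

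**Figure D2:**
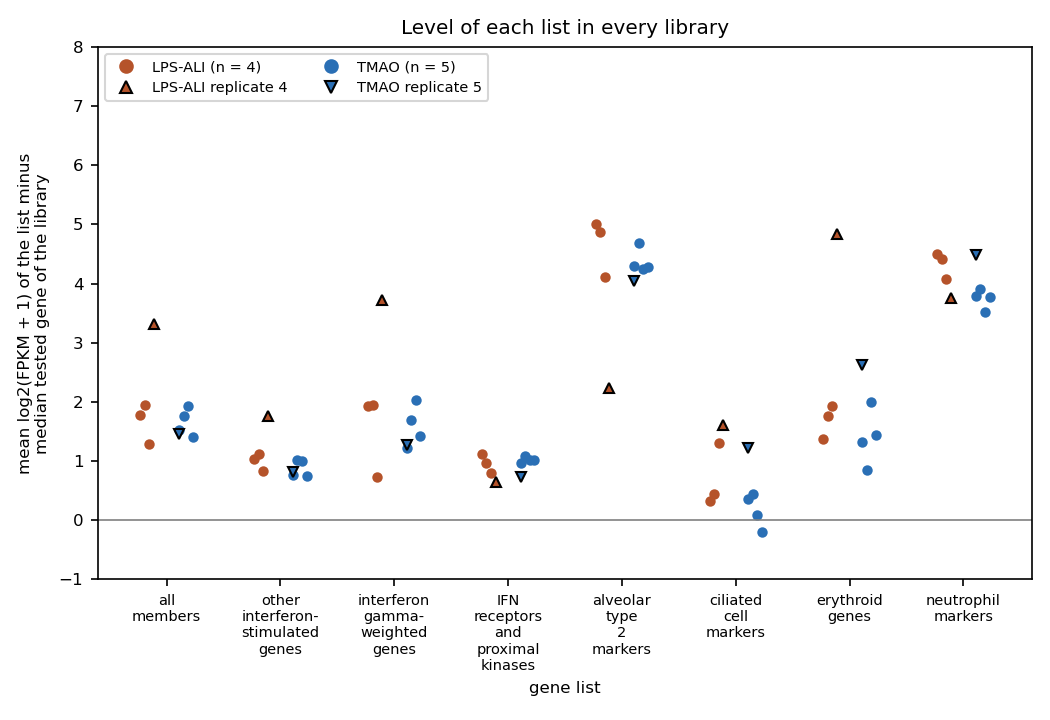
Mean log2(FPKM + 1) of each gene list minus the median tested gene of the library (vertical axis) for 8 lists (horizontal axis), with 1 point per library and triangles for LPS-ALI replicate 4 and TMAO replicate 5. LPS-ALI replicate 4 is the highest for the 33 genes at 3.32 and for erythroid genes at 4.84, and the lowest for alveolar type 2 markers at 2.24.

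The promoters of the group were examined for the response element known from interferon targets. The RefSeq promoter table (build GRCm38.p6, 250 bases before to 50 bases after each start) held 24 of the 33 genes, and Parp14, Zbp1, Mx2, Usp18, Mx1, Parp9, Oas2, Rtp4 and Dhx58 are not in it. The core GAAANNGAA, searched on both strands, was present for 15 of the 24 genes (62.5%) and for 9.76% of all 27025 genes in the table. Within the 250 bases before the start alone it was present for 12 of 24 (50%) and 8.18% of all genes. The STAT palindrome TTCNNNGAA, which reads the same on both strands, was present for 6 of 24 (25%) and 9.55% of all genes. The motifs can share their letters GAA, as they do upstream of Bst2. A match is a description of the letters and does not show that a factor was bound in these lungs.

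The 5 stretches printed here were chosen after their values were seen. Isg15, Rsad2 and Ifit1 stood 4.46-fold, 17.4-fold and 5.84-fold higher in LPS-ALI replicate 4 than the median of the other LPS-ALI libraries, while Oas3 and Bst2 stood at 0.882-fold and 0.954-fold. All 5 hold the core. Each run is the 250 bases before the start, 5′ to 3′ on the strand of the gene, with capitals for every match to the core on either strand.
Isg15: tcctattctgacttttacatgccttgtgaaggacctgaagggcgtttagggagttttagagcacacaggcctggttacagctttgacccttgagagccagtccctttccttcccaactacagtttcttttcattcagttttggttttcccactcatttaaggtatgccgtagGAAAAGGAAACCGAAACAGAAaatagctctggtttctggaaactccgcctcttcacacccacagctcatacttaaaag
Oas3: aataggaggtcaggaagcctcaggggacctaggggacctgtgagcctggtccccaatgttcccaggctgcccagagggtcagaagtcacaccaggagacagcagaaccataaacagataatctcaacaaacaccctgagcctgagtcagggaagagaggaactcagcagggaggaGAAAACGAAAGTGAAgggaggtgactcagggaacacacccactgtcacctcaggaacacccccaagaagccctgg
Bst2: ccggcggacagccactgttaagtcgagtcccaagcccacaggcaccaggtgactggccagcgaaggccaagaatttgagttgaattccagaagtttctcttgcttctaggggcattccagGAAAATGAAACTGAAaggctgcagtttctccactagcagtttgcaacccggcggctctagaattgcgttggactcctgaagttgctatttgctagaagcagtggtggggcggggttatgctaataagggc
Rsad2: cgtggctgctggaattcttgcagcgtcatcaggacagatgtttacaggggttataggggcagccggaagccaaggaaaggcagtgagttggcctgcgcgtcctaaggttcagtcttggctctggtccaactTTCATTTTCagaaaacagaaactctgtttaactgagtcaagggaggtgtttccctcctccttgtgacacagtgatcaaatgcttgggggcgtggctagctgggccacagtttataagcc
Ifit1: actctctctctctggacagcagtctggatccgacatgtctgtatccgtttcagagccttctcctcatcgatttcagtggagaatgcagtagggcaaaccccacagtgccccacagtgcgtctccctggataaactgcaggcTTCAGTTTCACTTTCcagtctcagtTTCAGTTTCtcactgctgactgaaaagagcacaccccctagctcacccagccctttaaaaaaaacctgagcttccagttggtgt
The stretches lie at chr4:156200819-156201068 (Isg15, minus strand), chr5:120777660-120777909 (Oas3, minus), chr8:71537473-71537722 (Bst2, minus), chr12:26456453-26456702 (Rsad2, minus) and chr19:34640639-34640888 (Ifit1, plus). Isg15 and Ifit1 each hold 3 matches, Oas3 and Bst2 hold 2 and Rsad2 holds 1, and matches overlap each other in Isg15, Oas3, Bst2 and Ifit1. Presence of the core did not go with a larger excess in LPS-ALI replicate 4. The median fold was 2.29 over the 15 genes with a match, 2.89 over the 9 without, and 4.08 over the 9 that are not in the table.

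The sensors bind foreign or misplaced nucleic acid inside the cell. Zbp1, a sensor of Z-form nucleic acid that can start cell death, lies on chr2:173206612-173218923 (minus strand) and had the highest mean FPKM of the 4. Zbp1 stood at 55.89, 64.99, 36.98 and 243.98 FPKM in LPS-ALI replicates 1 to 4. In TMAO replicates 1 to 5 Zbp1 stood at 29.13, 51.93, 57.12, 50.22 and 25.65 FPKM. LPS-ALI replicate 4 was far above all others, and apart from it the groups overlapped. The means were 100.5 ± 96.4 (SD, n = 4) and 42.8 ± 14.4 (SD, n = 5). The log2 difference of Zbp1 was -0.88 ± 0.48 (SE, limma unadjusted p = 0.0849, adjusted p = 0.998). The relative difference was -0.71, and -0.19 without LPS-ALI replicate 4.

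The RIG-I-like receptors sense viral RNA, Ddx58 (RIG-I, chr4:40203773-40239828, minus strand) and Ifih1 (MDA5, chr2:62595798-62646255, minus strand) as signalling receptors and Dhx58 (LGP2) as a regulator of both. Ddx58 stood at 18.67, 16.81, 14.13 and 18.38 FPKM in LPS-ALI lungs and at 16.74, 17.06, 16.62, 18.26 and 4.67 FPKM in TMAO lungs. TMAO replicate 5 alone was low and the other 8 libraries were close together. Ddx58 had a log2 difference of -0.32 ± 0.40 (SE, limma adjusted p = 0.998), or -0.15 relative to the median gene. Ifih1 stood at 10.83, 9.09, 4.89 and 20.78 FPKM in LPS-ALI lungs and at 7.27, 9.29, 10.92, 12.43 and 1.30 FPKM in TMAO lungs. LPS-ALI replicate 4 was again the highest and TMAO replicate 5 the lowest, with the remaining lungs mixed. Ifih1 had a log2 difference of -0.49 ± 0.52 (SE, limma adjusted p = 0.998), and its relative difference of -0.32 was -0.03 without LPS-ALI replicate 4. Dhx58, at 4.66 to 7.17 FPKM in the LPS-ALI lungs and 0.77 to 5.47 in the TMAO lungs, stood in LPS-ALI replicate 4 only 1.11-fold over the median of the other LPS-ALI libraries. The fold was 1.09 for Ddx58, 2.29 for Ifih1 and 4.37 for Zbp1, so the excess ranged widely among the sensors.

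Irf7, the factor that amplifies interferon production, lies on chr7:141262706-141266481 (minus strand). Irf7 stood at 306.2, 285.1, 118.3 and 1215 FPKM in LPS-ALI replicates 1 to 4. In TMAO replicates 1 to 5 Irf7 stood at 173.8, 238.6, 256.6, 268.3 and 82.63 FPKM. The 3 other LPS-ALI lungs spanned most of the TMAO range. The means were 481.1 ± 496 (SD, n = 4) and 204.0 ± 77.1 (SD, n = 5). For Irf7 the log2 difference was -0.83 ± 0.54 (SE, limma unadjusted p = 0.145, adjusted p = 0.998), and its relative difference of -0.66 was -0.08 without LPS-ALI replicate 4.

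Irf9 and Stat2 encode parts of the complex that binds the response element. Irf9 (chr14:55603571-55610030, plus strand) stood at 38.46, 39.46, 20.57 and 49.24 FPKM in LPS-ALI lungs and at 29.59, 36.65, 32.46, 41.24 and 9.95 FPKM in TMAO lungs. The groups overlapped over most of their range, and the high library was only 1.28-fold above the median of the other LPS-ALI lungs. For Irf9 the log2 difference was -0.36 ± 0.42 (SE, limma adjusted p = 0.998), or -0.19 relative to the median gene. Stat2 ranged from 5.76 to 17.68 FPKM in LPS-ALI lungs and from 1.35 to 9.25 in TMAO lungs, with a relative difference of -0.42 and -0.17 without LPS-ALI replicate 4. Stat2, Oas1g, Oas2 and Mx2 were the 4 of the 33 genes for which LPS-ALI replicate 3 was not the lowest of its group.

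**Figure D3:**
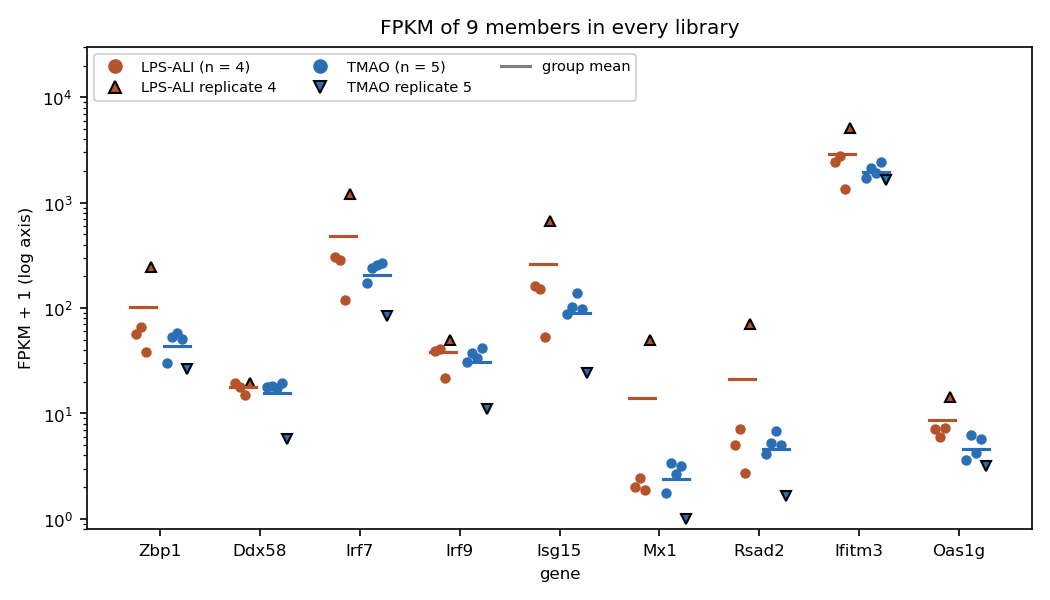
FPKM + 1 on a log axis for 9 interferon-stimulated genes in every library, with a line at the mean for each group (4 LPS-ALI and 5 TMAO lungs) and triangles for LPS-ALI replicate 4 and TMAO replicate 5. LPS-ALI replicate 4 stands above the rest for Zbp1 at 243.98 FPKM, Irf7 at 1215 and Mx1 at 48.75, and lies among the other lungs for Ddx58 at 18.38.

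Isg15, a ubiquitin-like protein that is joined to other proteins, lies on chr4:156199424-156200818 (minus strand) and had the lowest difference of the 33 genes on the scale used here. Under median-of-ratios scaling and with a pseudocount of 0.1, Mx1 and Rsad2 were lower. Isg15 stood at 160.5, 151.6, 51.89 and 675.9 FPKM in LPS-ALI replicates 1 to 4. In TMAO replicates 1 to 5 Isg15 stood at 87.77, 100.8, 137.4, 96.17 and 23.38 FPKM. All TMAO lungs were below LPS-ALI replicates 1, 2 and 4, but 4 of the 5 were above LPS-ALI replicate 3. The log2 difference of Isg15 was -1.14 ± 0.62 (SE, limma unadjusted p = 0.0867, adjusted p = 0.998). The relative difference was -0.97, and -0.35 without LPS-ALI replicate 4. Usp18, the protease that removes ISG15 and also inhibits the receptor, was 6.70-fold higher in LPS-ALI replicate 4 than the median of the other LPS-ALI lungs, and its relative difference of -0.56 was 0.08 without that library.

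Mx1, a GTPase that traps viral nucleoproteins, lies on chr16:97447035-97462907 (minus strand) and had the widest spread within groups among the effectors. Mx1 stood at 1.02, 1.42, 0.86 and 48.75 FPKM in LPS-ALI lungs. In TMAO lungs Mx1 stood at 0.75, 2.39, 1.64 and 2.19 FPKM and was listed at 0 in replicate 5. Outside LPS-ALI replicate 4, which was 47.8-fold above the median of the other LPS-ALI lungs, every lung was at 2.39 FPKM or less. The log2 difference of Mx1 was -1.08 ± 0.78 (SE, limma unadjusted p = 0.186, adjusted p = 0.998). The relative difference was -0.91, and 0.20 without LPS-ALI replicate 4. Mx2, annotated as a polymorphic pseudogene, had 29.84 FPKM in LPS-ALI replicate 4 and 1.16 to 6.50 in all other lungs.

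Rsad2 (viperin, which makes a chain-terminating nucleotide) and its neighbour Cmpk2 (a mitochondrial nucleotide kinase) lie next to each other on chromosome 12. Rsad2, named after its values were seen, stood at 3.98, 6.06, 1.70 and 69.36 FPKM in LPS-ALI lungs and at 3.09, 4.22, 5.89, 4.07 and 0.66 FPKM in TMAO lungs. Apart from LPS-ALI replicate 4 the groups covered the same range. The log2 difference of Rsad2 was -1.12 ± 0.74 (SE, limma adjusted p = 0.998), and its relative difference was -0.95, and -0.0035 without that library. Cmpk2 (chr12:26469204-26479837, plus strand) stood at 19.03, 15.23, 5.29 and 35.55 FPKM in LPS-ALI lungs and at 14.11, 20.95, 19.85, 21.54 and 4.38 FPKM in TMAO lungs. It was the only 1 of the 33 whose relative difference was above 0, at 0.06 (log2 difference -0.11 ± 0.53 SE, limma adjusted p = 0.998), and it was 0.40 without LPS-ALI replicate 4. Of this neighbouring pair Rsad2 was 17.4-fold and Cmpk2 2.33-fold higher in LPS-ALI replicate 4 than the median of the other LPS-ALI lungs.

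The IFIT proteins bind viral RNA that lacks host cap marks, and their 4 genes lie together on chromosome 19. Each was highest in LPS-ALI replicate 4, from 3.91-fold (Ifit3b) to 11.2-fold (Ifit2) over the median of the other LPS-ALI lungs. The median relative difference of the family was -0.49 with all libraries, 0.28 when LPS-ALI replicate 4 was left out, and 0.43 when TMAO replicate 5 was also left out. Without both LPS-ALI replicates 3 and 4 it was -0.20, with 4 of 4 genes below the median gene. Ifit2 stood at 21.24, 18.86, 5.06 and 211.28 FPKM in LPS-ALI lungs and at 12.66, 21.19, 33.66, 15.26 and 5.01 FPKM in TMAO lungs, and was named after its values were seen. Among lungs other than LPS-ALI replicate 4, TMAO replicate 3 was the highest. Ifit3 and Ifit3b share 41.1% and 35.7% of their 75-base stretches with each other, so that reads could have been assigned to either.

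The active OAS enzymes make the short adenylate chains that activate RNase L. Oas1g (chr5:120876142-120887613, minus strand) was the only 1 of the 33 genes with an unadjusted p under 0.05 in the fit without centring. Oas1g stood at 6.17, 4.98, 6.21 and 13.48 FPKM in LPS-ALI replicates 1 to 4. In TMAO replicates 1 to 5 Oas1g stood at 2.61, 5.30, 3.23, 4.77 and 2.16 FPKM. Only TMAO replicate 2 lay above any LPS-ALI lung, and it was above 1, replicate 2. The means were 7.71 ± 3.89 (SD, n = 4) and 3.61 ± 1.36 (SD, n = 5). The log2 difference of Oas1g was -0.88 ± 0.37 (SE, limma unadjusted p = 0.0333, adjusted p = 0.998). The relative difference was -0.71, and -0.47 without LPS-ALI replicate 4. Oas1g shares 36.9% of its 75-base stretches with Oas1a, and Oas1a shares 47.6% with Oas1g, so their separate values are uncertain.

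The OAS genes stayed mostly below the median gene when LPS-ALI replicate 4 was left out. Their median relative difference was -0.48 with all libraries, -0.38 when LPS-ALI replicate 4 was left out, and -0.40 when TMAO replicate 5 was also left out, with 5 of 6 genes below the median gene in the last. Oas2 and Oas3 were not high in LPS-ALI replicate 4, at 0.949-fold and 0.882-fold of the median of the other LPS-ALI lungs. Oas2 was highest in LPS-ALI replicate 3 at 7.10 FPKM and Oas3 in LPS-ALI replicate 1 at 8.80 FPKM. Oasl2, with 16.72 to 162.51 FPKM the most abundant of the family by mean, had a relative difference of -0.33 that was 0.01 without LPS-ALI replicate 4.

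**Figure D4:**
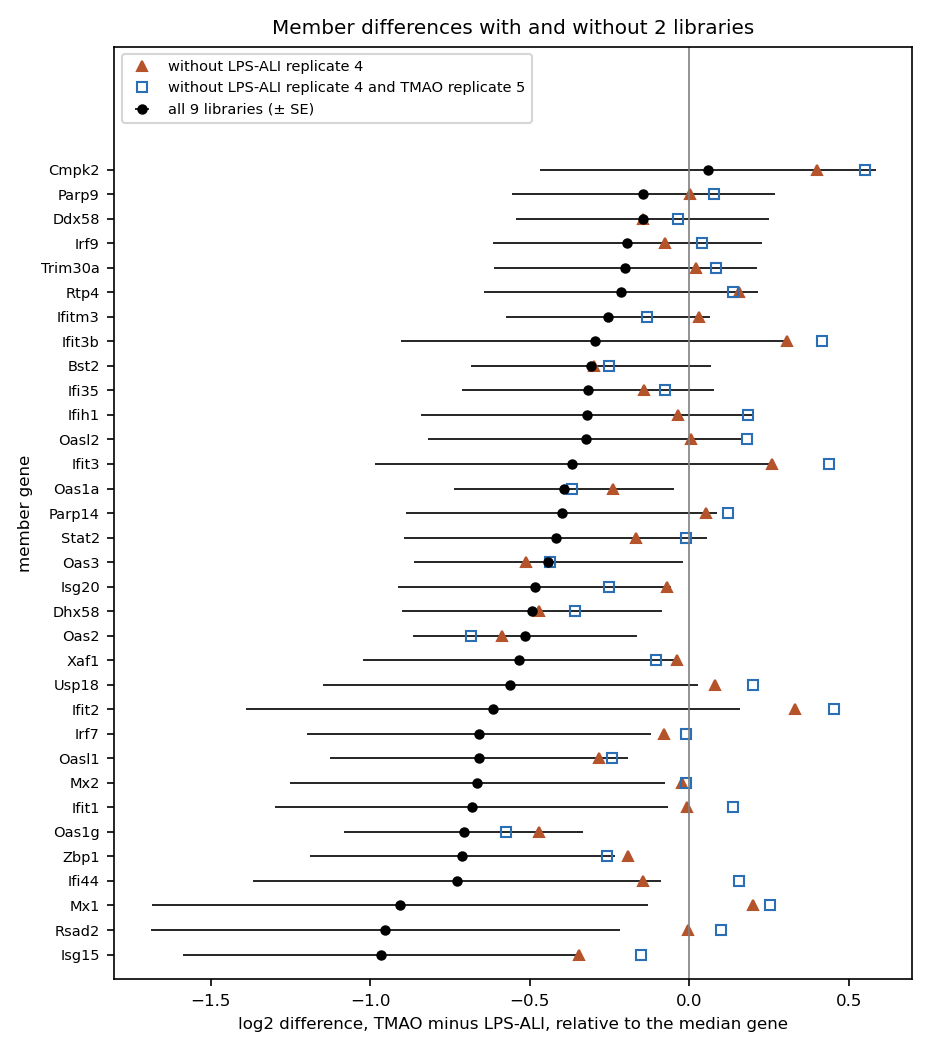
Relative log2 difference (TMAO minus LPS-ALI, horizontal axis) of each of the 33 interferon-stimulated genes, with all 9 libraries (black, ± the SE of the fitted difference), without LPS-ALI replicate 4 (triangles) and without LPS-ALI replicate 4 and TMAO replicate 5 (open squares). With all libraries 32 genes are below 0, and without both libraries 17 are.

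Ifitm3, a membrane protein that blocks the fusion of viruses in endosomes, lies on chr7:141009586-141010770 (minus strand) and was the most abundant of the 33 genes. Ifitm3 stood at 2413, 2798, 1345 and 5121 FPKM in LPS-ALI lungs and at 1717, 2125, 1915, 2436 and 1642 FPKM in TMAO lungs. The TMAO lungs lay close together inside the LPS-ALI range. Ifitm3 had a log2 difference of -0.42 ± 0.32 (SE, limma unadjusted p = 0.206, adjusted p = 0.998), and its relative difference was -0.25, and 0.03 without LPS-ALI replicate 4. Bst2 (tetherin, which holds budding virus at the cell surface) ranged from 79.74 to 149.75 FPKM in LPS-ALI lungs and from 41.07 to 147.51 in TMAO lungs. Its relative difference of -0.31 was nearly the same without LPS-ALI replicate 4, at -0.30.

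The remaining 8 effectors were all highest in LPS-ALI replicate 4. Parp9 and Parp14, which attach or read ADP-ribose, stood at 1.54-fold and 4.08-fold of the median of the other LPS-ALI lungs. Ifi44 stood at 5.03-fold, Xaf1 at 3.11-fold, Isg20 (a nuclease of single-stranded RNA) at 2.88-fold, Rtp4 at 2.54-fold, Trim30a at 1.82-fold and Ifi35 at 1.71-fold. The 8 relative differences lay between -0.73 (Ifi44) and -0.14 (Parp9), and limma called 0 of them. Some of these values may include reads of other genes, since Rtp4 shares 13.9% of its exon bases with Gm45338 on the same strand, and Parp9 shares 9.40% with Dtx3l and Ifi35 16.8% with Gm11626 on the opposite strand. The sources used here do not give the counting strand.

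Over all 33 genes the excess in LPS-ALI replicate 4 over the median of the other LPS-ALI lungs was at least 2-fold for 23, at least 3-fold for 15, at least 5-fold for 7 and at least 10-fold for 3. The last 3 were Mx1, Rsad2 and Ifit2. Oas3, Oas2 and Bst2 were at or under 1-fold, and Ddx58, Dhx58 and Irf9 under 1.3-fold. Over all genes the median of this fold was 1.09. The shares of all genes past these thresholds are not given here, so the counts only describe the 33 genes.

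**Figure D5:**
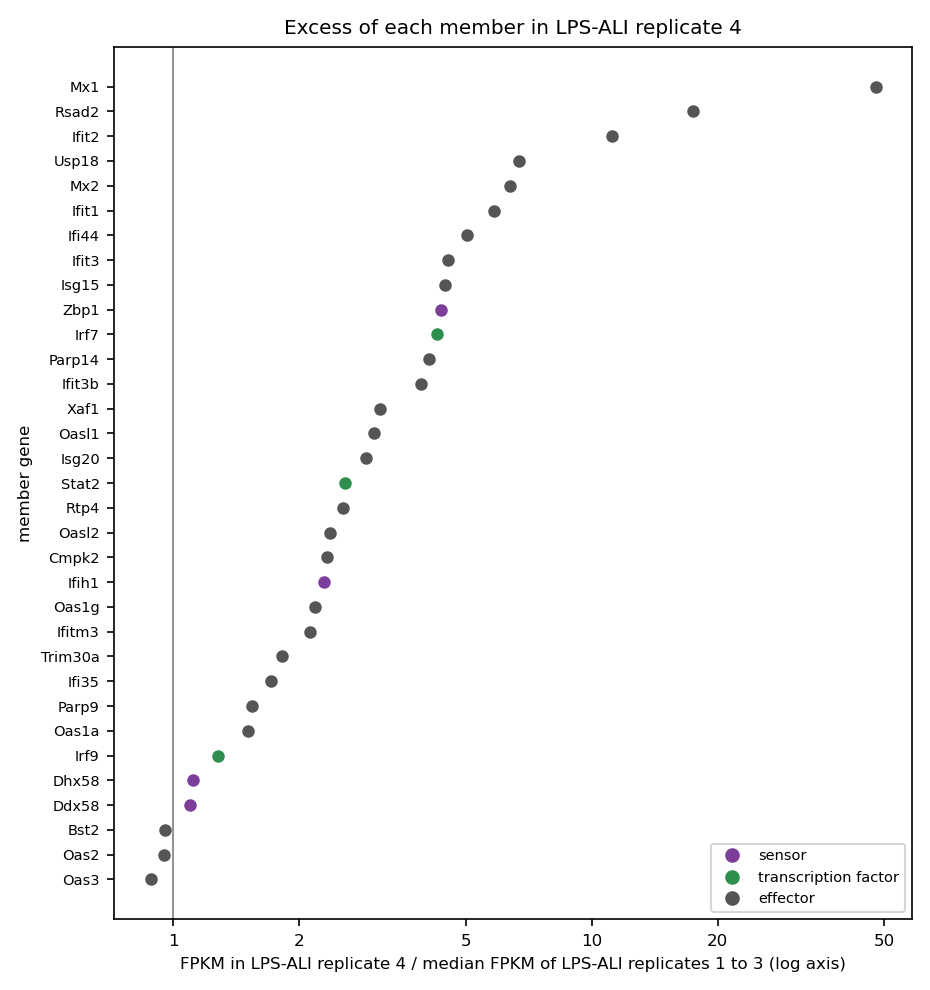
FPKM in LPS-ALI replicate 4 over the median FPKM of LPS-ALI replicates 1 to 3 (horizontal log axis) for each of the 33 interferon-stimulated genes, coloured by role, with a line at 1. Mx1 is the highest at 47.8 and Oas3 the lowest at 0.882.

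Interferon genes themselves were hardly seen in these lungs. Of the 16 ligands in the table, 14 were listed at 0 in every library, among them Ifnb1 and all listed Ifna genes. Ifnz reached 0.22 FPKM, and Ifng, the type II interferon, reached 0.71 FPKM in LPS-ALI replicate 1 and 0.45 in replicate 4. None of the ligands passed the filter.

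Of the 9 receptor chains and proximal kinases that carry the interferon signal, 4 were below the median gene, and the median relative difference was 0.02. LPS-ALI replicate 4 was the highest library for 1 of the 9, against 26.9% of all genes. Ifngr2, a chain of the interferon gamma receptor, had the smallest p and stood at 33.41, 19.31, 13.24 and 20.70 FPKM in LPS-ALI lungs and at 24.43, 43.31, 26.83, 36.10 and 15.86 FPKM in TMAO lungs. The groups overlapped, with TMAO lungs mostly higher. Its log2 difference was 0.42 ± 0.38 (SE, limma unadjusted p = 0.287, adjusted p = 0.998), or 0.58 relative to the median gene. In the fit on centred libraries it was 0.59 ± 0.23 (SE, limma unadjusted p = 0.0273, adjusted p = 0.644). In that fit 3.5% of all genes were higher at an unadjusted p under 0.05. Ifnar2, a chain of the type I receptor, stood at 47.37, 45.67, 32.82 and 44.25 FPKM in LPS-ALI lungs and at 29.64, 40.71, 33.72, 50.26 and 21.15 FPKM in TMAO lungs. LPS-ALI replicate 4 was among the other lungs of its group for this gene. For Ifnar2 the log2 difference was -0.31 ± 0.33 (SE, limma adjusted p = 0.998), or -0.14 relative to the median gene.

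Of the 9 tested IRF and STAT factors outside the list, 8 were below the median gene, with a median of -0.38, and limma called 0 by adjusted p. Without LPS-ALI replicate 4 it was 6 of 9 and -0.10, and without TMAO replicate 5 as well it was 3 of 9 and 0.09. At an unadjusted p under 0.05, 2 of the 9 were lower, against 2.93% of all genes. They were Irf8 and Irf5, which act in myeloid cells. Irf8 stood at 6.09, 5.10, 5.72 and 25.43 FPKM in LPS-ALI lungs and at 2.46, 5.01, 3.82, 5.44 and 1.10 FPKM in TMAO lungs, with a log2 difference of -1.15 ± 0.48 (SE, limma unadjusted p = 0.0312, adjusted p = 0.998), or -0.98 relative to the median gene. Irf5 stood at 8.54, 8.14, 11.62 and 13.25 FPKM in LPS-ALI lungs and at 5.72, 6.85, 7.06, 6.75 and 2.68 FPKM in TMAO lungs, with a log2 difference of -0.77 ± 0.36 (SE, limma unadjusted p = 0.0474, adjusted p = 0.998), or -0.60 relative to the median gene. For Irf5 every TMAO lung was below every LPS-ALI lung, which held for 1 of the 9 factors and for 1.36% of all genes. For Irf8 TMAO replicate 4 lay among the LPS-ALI lungs. In the fit on centred libraries Irf8 had -0.97 ± 0.37 (SE, limma unadjusted p = 0.0254, adjusted p = 0.644). Irf5 had -0.60 ± 0.21 in that fit (SE, limma unadjusted p = 0.0149, adjusted p = 0.606).

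The genes that detect LPS or nucleic acid and pass the signal on, and the inhibitors of the pathway, lay nearer to the median gene. In the first group 10 of 15 tested genes were below it, with a median of -0.05, and in the second 8 of 12, with a median of -0.09. Limma called 0 of either group by adjusted p, and 0 had an unadjusted p under 0.05 in the fit without centring. In the fit on centred libraries Ikbke, a kinase that activates interferon regulatory factors, was lower (-0.69 ± 0.23 SE, limma unadjusted p = 0.0117, adjusted p = 0.605). In that fit 3.71% of all genes were lower at an unadjusted p under 0.05. Without centring, the smallest unadjusted p in the first group was also that of Ikbke. Its log2 difference was -0.86 ± 0.45 (SE, limma unadjusted p = 0.0752, adjusted p = 0.998), or -0.69 relative to the median gene. In the second group the smallest p was that of Tnfaip3, an inhibitor of NF-kB signalling. Tnfaip3 had -0.66 ± 0.42 (SE, limma unadjusted p = 0.143, adjusted p = 0.998), or -0.49 relative to the median gene. For 1 of the 12 inhibitors, Socs1, every TMAO lung was below every LPS-ALI lung, against 1.36% of all genes.

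In a wider set of 54 tested interferon-stimulated genes outside the 33, 45 were below the median gene and the median was -0.36. Of these, 6 were lower at an unadjusted p under 0.05, against 2.93% of all genes, and 0 by adjusted p. LPS-ALI replicate 4 was the highest library for 38 of the 54, against 26.9% of all genes. Without it 35 of 54 were below the median gene and the median was -0.13. Ifi207, a DNA-binding protein of the p200 family, had the smallest p, and it stood at 4.08, 4.57, 5.35 and 12.92 FPKM in LPS-ALI lungs and at 2.08, 3.59, 2.63, 3.41 and 0.63 FPKM in TMAO lungs. For 2 of the 54, Ifi207 and Epsti1, every TMAO lung was below every LPS-ALI lung, against 1.36% of all genes. For Ifi207 the log2 difference was -1.12 ± 0.41 (SE, limma unadjusted p = 0.0156, adjusted p = 0.998), or -0.95 relative to the median gene. In the fit on centred libraries it was -0.94 ± 0.28 (SE, limma unadjusted p = 0.00602, adjusted p = 0.574).

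Genes of a list weighted towards interferon gamma were high in LPS-ALI replicate 4 as well. The part that each type of interferon plays in them was not tested. LPS-ALI replicate 4 was the highest library for 17 of 17 tested genes, against 26.9% of all genes. Its median fold over the other LPS-ALI lungs was 3.81, against 1.09 over all genes. The median relative difference of these 17 genes was -0.54 with all libraries and 0.07 without LPS-ALI replicate 4. Without LPS-ALI replicates 3 and 4 it was -0.34, with 17 of 17 genes below the median gene. Ido1, the enzyme that degrades tryptophan, stood at 1.97, 1.90, 0.56 and 35.16 FPKM in LPS-ALI lungs and at 0.30, 0.99, 1.89, 1.65 and 0.14 FPKM in TMAO lungs. Outside LPS-ALI replicate 4 both groups were under 2 FPKM. For Ido1 the log2 difference was -1.33 ± 0.69 (SE, limma unadjusted p = 0.0709, adjusted p = 0.998), or -1.16 relative to the median gene.

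The libraries differed in ways that touch these values. Read totals are not given, and relative depth, estimated from the spacing of low values, ran from 0.380 of the deepest library in TMAO replicate 5 to 1 in LPS-ALI replicate 3. In TMAO replicate 5, 8846 genes reached 1 FPKM, while the other libraries had 11158 to 12239. Mitochondrial genes held 33.4% to 52.2% of the FPKM, least in LPS-ALI replicate 4 and most in TMAO replicate 5. No library was a copy of another.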

How the data were processed

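RNA was measured by sequencing in 9 lung libraries, each from a separate mouse, with groups taken from the labels. Per the labels' protocols, libraries came from total RNA after depletion of ribosomal RNA. The submitters' processing notes name fastp, HISAT2, SAMtools, featureCounts and build mm10. Versions, annotation, strand setting and gene lengths are not stated in those sources. Values were deposited by the authors as FPKM, with 1 column per library, so depth is known only in relative terms and no counting intervals are given.

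Values were tested as log2(FPKM + 1) in limma 3.58.1 (R 4.3.3), two-sided, with a mean-variance trend and Benjamini-Hochberg adjustment over the 11817 genes that reached an FPKM of 1 in 4 or more libraries. The fit was tested on simulated data. Relative differences subtract that of the median gene, and a fit on libraries centred on their median gene tests them. A level of a list is the mean log2 value of its tested genes minus the median tested gene of the library. Of 52381 identifiers, 52073 matched GENCODE M21 (GRCm38), which gave coordinates, exon overlaps and shared 75-base stretches. Promoters come from RefSeq. Tables and figures used Python 3.11.15, pandas 2.3.3 and matplotlib 3.10.9.

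The members and lists were chosen with earlier results of these data known. Genes named with values in every library were those with no overlap between the groups or an unadjusted p under 0.05 and, per role, those with the highest mean FPKM, the lowest and highest difference and the widest spread within groups. In other lists they came from the 3 with the smallest unadjusted p, and in cell type lists those with the highest mean. Rsad2 and Ifit2, and library comparisons built on LPS-ALI replicates 3 and 4 and TMAO replicate 5, were picked after values were seen. Alternatives changed the pseudocount, filter, scaling, variance model, replicate block and libraries.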

Additional observations from a re-analysis of the deposited data

Results flagged for a closer look

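In 12 of 66 groups of lungs (33 genes in each of 2 groups), 1 lung stood apart from the rest of its group by Dixon's criterion at the 95% level. For normally distributed values chance alone gives about 1 in 20. The criterion was applied to FPKM and not to log2 values, so high values stood apart more readily than low ones. The 33 genes were measured in the same lungs, so the flagged cases are not separate events. The criterion was not applied to the other genes, and LPS-ALI replicate 4 was the highest library for 26.9% of all genes. The count is therefore no result about the 33 genes. Of the 12, 11 were LPS-ALI replicate 4 lying above LPS-ALI replicates 1 to 3. They were, in FPKM, the sensor Zbp1 at 243.98 (36.98 to 64.99 in the other 3), Ifit1 at 211.85 (17.26 to 37.10), Ifit2 at 211.28 (5.06 to 21.24) and Ifit3 at 914.21 (73.23 to 204.61). Oas1g stood at 13.48 (4.98 to 6.21), Mx1 at 48.75 (0.86 to 1.42), Mx2 at 29.84 (2.08 to 4.94) and Usp18 at 114.96 (12.39 to 21.81). Rsad2 stood at 69.36 (1.70 to 6.06), Parp14 at 28.51 (5.84 to 6.99) and Ifi44 at 92.01 (10.20 to 20.22). The remaining case was Ddx58 in TMAO replicate 5, at 4.67 FPKM with 16.62 to 18.26 in TMAO replicates 1 to 4.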

How the results depend on the processing

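Of the 33 genes, 0 passed an adjusted p of 0.05 in limma under any of the 22 alternatives, where the smallest adjusted p was 0.232, and 14 kept the sign of their relative difference throughout. Over all tested genes, the deviations of same-numbered lungs from their group means correlated at 0.0641, -0.0111, -0.0331 and -0.1339. Lungs with different numbers were not set beside them, so this cannot settle whether the numbers on the labels pair the mice. With the replicate block the median over the 33 genes was -0.41, 32 were below the median gene, and 1 was lower at an unadjusted p under 0.05. Among all genes, library weights gave 51 past the adjusted threshold, and leaving out 1 library gave 0 to 3 (1 without LPS-ALI replicate 3, 3 without TMAO replicate 4). The count of the 33 lower at an unadjusted p under 0.05, 1 with all libraries, was 2 after centring, median-of-ratios scaling or quantile normalization, 5 with library weights, and 0 without mitochondrial genes, without the X-coded libraries or without LPS-ALI replicate 4 and TMAO replicate 5. It ran from 0 to 9 when 1 library was left out, with 9 without LPS-ALI replicate 3, 2 without TMAO replicate 2 and 0 without LPS-ALI replicate 4, TMAO replicate 1 or TMAO replicate 3. Genes whose groups did not overlap numbered 1 after median-of-ratios scaling and 6 without the X-coded libraries. With 1 library left out they numbered 0 to 6. The counts were 6 without LPS-ALI replicate 3, 2 without TMAO replicate 2 and 1 without LPS-ALI replicate 2. Groups with fewer lungs fail to overlap more easily for any gene. Apart from centring, the shares over all genes under these alternatives are not given here. These counts are therefore no result about the 33 genes. The number below the median gene ran from 21 (without LPS-ALI replicate 4) to 33, and was 17 without LPS-ALI replicate 4 and TMAO replicate 5. The median of -0.44 was -0.13 with library weights and -0.24 without the X-coded libraries, where 29 of 33 were below the median gene.

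Signs changed for these genes. Without LPS-ALI replicate 4 and TMAO replicate 5, relative differences were 0.19 (Ifih1), 0.039 (Irf9), 0.14 (Ifit1), 0.45 (Ifit2), 0.44 (Ifit3), 0.42 (Ifit3b), 0.18 (Oasl2), 0.25 (Mx1), 0.20 (Usp18), 0.10 (Rsad2), 0.076 (Parp9), 0.12 (Parp14), 0.16 (Ifi44), 0.14 (Rtp4) and 0.085 (Trim30a). With library weights they were 0.022 (Ifih1), 0.20 (Stat2), 0.15 (Ifit2), 0.20 (Ifit3), 0.021 (Ifit3b), 0.0067 (Mx2) and 0.086 (Parp14). Without the X-coded libraries they were 0.12 (Stat2), 0.20 (Mx1), 0.20 (Mx2), -0.019 (Cmpk2) and 0.063 (Parp14), and with no filter Cmpk2 was at -0.061. With 1 library left out the ranges were -0.34 to 0.40 (Cmpk2), -1.28 to 0.33 (Ifit2), -0.85 to 0.26 (Ifit3), -0.86 to 0.31 (Ifit3b), -0.51 to 0.032 (Ifitm3), -1.34 to 0.20 (Mx1), -0.58 to 0.0063 (Oasl2), -0.58 to 0.051 (Parp14), -0.30 to 0.0012 (Parp9), -0.53 to 0.16 (Rtp4), -0.37 to 0.022 (Trim30a) and -0.86 to 0.079 (Usp18). The upper end came without LPS-ALI replicate 4 in each. Why these values moved was not tested.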

Other observations

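The values of the 2 chromosomal clusters among the effectors depended on which libraries were left out. The IFIT cluster on chromosome 19 (Ifit2, Ifit3, Ifit3b and Ifit1, all on the plus strand, from 34550694 to 34650009) had relative log2 differences of 0.45, 0.44, 0.42 and 0.14 without LPS-ALI replicate 4 and TMAO replicate 5. The cluster of Oas2, Oas3, Oas1g and Oas1a on chromosome 5 (minus strand, from 120730333 to 120907521) had -0.68, -0.44, -0.57 and -0.37 in the same libraries. On the same chromosome, Oasl2 and Oasl1 (plus strand, from 114896936 to 114937915) had 0.18 and -0.24. Without LPS-ALI replicates 3 and 4, in contrast, both families were below the median gene, with medians of -0.20 over the 4 IFIT genes and -0.35 over the 6 OAS genes. These clusters were compared after their values were seen, and their difference was not tested.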
